A study of Mus musculus with 18 samples.

Results

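The variable gene segments of the mouse immunoglobulin loci were followed across 3 kinds of mammary tissue from female C57Bl/6 mice. A segment was taken as measured where an array probe set (a transcript cluster) carried its symbol and no other in the annotation of the platform, with the symbol beginning Ighv, Igkv or Iglv and a digit. This gave 199 of the 27030 genes tested, of which 113 belong to the heavy chain locus on chromosome 12 and 86 to the kappa light chain locus on chromosome 6. No lambda segment had a cluster to itself, since the lambda locus on chromosome 16 is read by a single cluster that also carries constant and joining segments. All 199 symbols were found in the RefSeq gene table, which lists 348 variable segments (183 heavy, 162 kappa and 3 lambda). RefSeq gives 189 of the 199 as segments and 10 as segment pseudogenes.

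There were 6 M/D-driven mammary tumors, 6 hyperplastic glands and 6 normal glands, each on its own Affymetrix whole-transcript array. Mice of the tumor and hyperplastic groups carried a pellet of 50 mg medroxyprogesterone acetate (MPA, a synthetic progestin) lasting 90 days and then received 6 gavages of 200 µL of the carcinogen DMBA at 5 mg/mL. They were 6 to 9 weeks old when the pellet was implanted. Tumors were collected at 0.7 to 1 cm2, hyperplastic glands bore no tumor, and normal glands came from M/D-naïve mice, which had neither agent and whose age is not given. The sources do not tie samples to mice or say whether the mammary lymph node was removed, so the p-values reflect only how far these samples spread, which may be technical in part.

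Antibody genes are assembled rather than inherited whole. In a developing B cell the recombinase joins 1 variable segment to a joining segment, with a diversity segment between them in the heavy chain, and the joined exon encodes the part of the antibody that binds antigen. A mature B cell therefore transcribes mainly the segment it has joined in each chain, and when it becomes a plasma cell it makes far more of that transcript. In a bulk tissue the segments together read the amount of immunoglobulin transcript, and a single segment standing apart from the rest reads unequal use of that segment. Segments are grouped into families by sequence likeness (Ighv1, Igkv4 and so on), and members of a family can share probe sequence, so which member of a family changed is less certain than that the family did. Fewer B lineage cells and less immunoglobulin RNA per cell cannot be told apart in these data.

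Values are log2 expression after robust multi-array averaging (RMA). The level of a gene was called detected where the mean of a group lay above 5.36, the 95th percentile of the means of 1078 olfactory receptor genes, which serve as genes hardly used in this tissue. By that measure 95 segments were detected in tumors, 148 in hyperplastic and 159 in normal glands, and 39 were detected in no group. Below the detection level the array cannot follow a further decrease, so a log2 difference is then a low estimate and no fold is given.

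Averaged over the 199 segments, the level of an array lay between 5.06 and 5.89 in tumors, between 5.81 and 6.98 in hyperplastic glands, and between 6.78 and 7.52 in normal glands. Among tumors, number 5 had the highest mean and number 1 the lowest. Hyperplastic gland 4 (5.81) lay below tumor 5 (5.89) and apart from the rest of its group, of which the next was hyperplastic gland 1 at 6.44. Hyperplastic gland 2 (6.98) lay above normal glands 1 (6.78) and 5 (6.89). Both chains gave the same picture: the mean of the heavy segments was 5.47 ± 0.291 in tumors, 6.53 ± 0.371 in hyperplastic and 7.04 ± 0.275 in normal glands, and that of the kappa segments was 5.32 ± 0.41 in tumors, 6.55 ± 0.458 in hyperplastic and 7.20 ± 0.313 in normal glands (SD over 6 arrays).

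**Figure D1:**
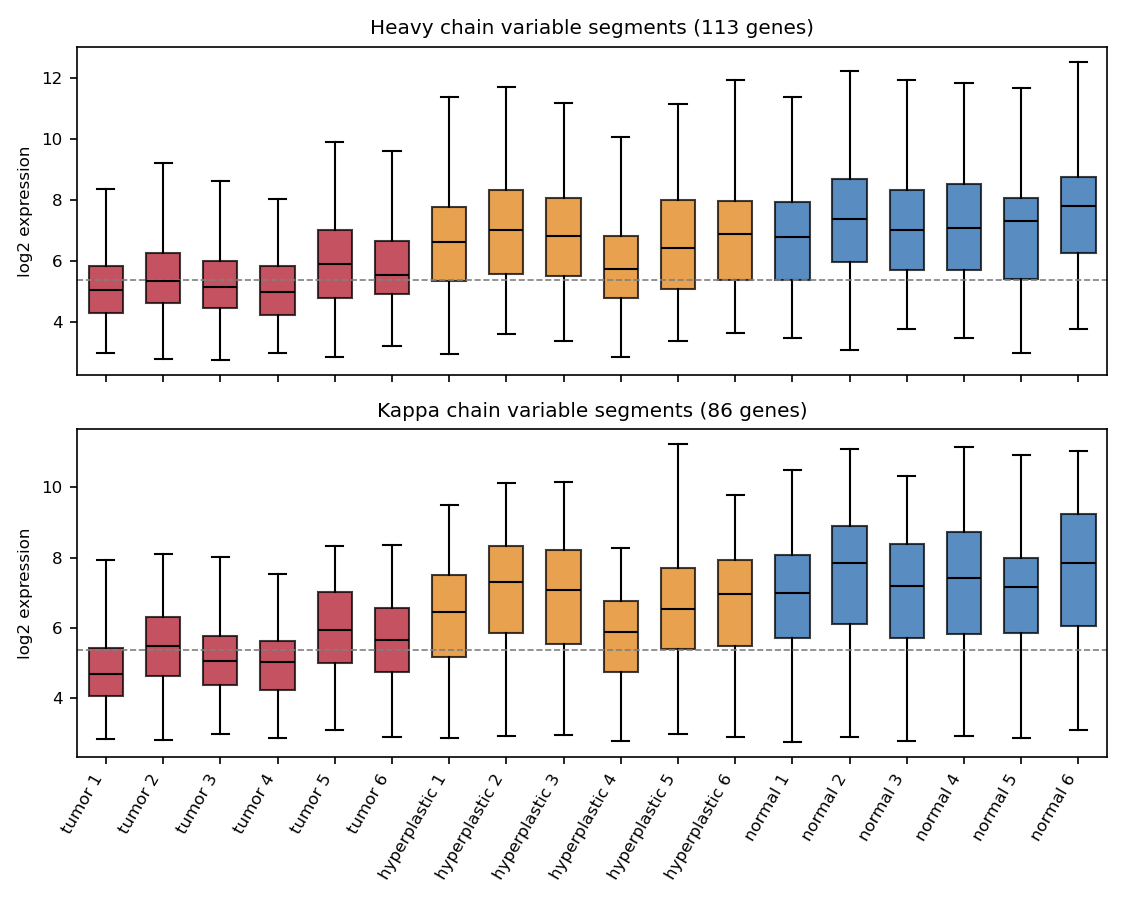
Log2 expression of the 113 heavy chain (top) and 86 kappa chain (bottom) variable segments on each of the 18 arrays, with boxes for the quartiles, lines for the median, whiskers for the lowest and highest segment, and the detection level of 5.36 as a dashed line. On average the boxes lie lowest in tumors and highest in normal glands, but neighbouring groups overlap: hyperplastic gland 4 lies among the tumors and hyperplastic gland 2 among the normal glands.

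The comparison of tumors with normal glands asked how much immunoglobulin transcript a tumor holds relative to a gland that never met the agents. Of the 199 segments, 181 fell in tumors and none rose at an adjusted p under 0.05 (limma with Benjamini-Hochberg adjustment over all 27030 genes), whereas 12.7% of all genes fell and 19.5% rose. The median log2 difference over the segments was -1.69, beside 0.04 over all genes. After the arrays were centred on 9 reference genes, the median over all genes was -0.19, and 46.2% of all genes fell and 6.97% rose. The reference genes were not all steady. Before centring, 2 of them (Sdha and Polr2a) fell and 3 (Gusb, Ywhaz and Pgk1) rose. Of the 199 segments, 197 fell after centring and none rose, with a median of -1.92. In the uncentred values every tumor lay below every normal gland in 169 segments, a pattern found in 7.00% of all genes. There 82 segments fell by more than 2 log2 units, against 0.803% of all genes. By chain, 106 of 113 heavy segments fell (median -1.61) and 75 of 86 kappa segments fell (median -1.84).

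The segments were also counted by their level in normal glands. Among the 28 segments with a normal mean over 9, all 28 fell, with a median of -3.05. The 85 segments from 7 to 9 all fell too, with a median of -2.15. Of 46 segments between the detection level and 7, 41 fell (median -1.09), and of 40 segments under the detection level in normal glands, 27 fell (median -0.52). The normal mean enters the difference itself, and a low segment can fall only as far as background, so a larger fall in the higher groups is partly built in and no relation is read from these counts. Families, given next, differ in level too, and the same limit holds for them.

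Along the kappa locus the segments in the middle had the lowest differences. With the kappa segments ranked by RefSeq position and divided into 3 stretches, 28 of 29 segments in the middle stretch fell in tumors against normal glands, with a median of -3.05. The medians were -1.83 in the stretch next to the joining segments (24 of 29 fell) and -1.01 in the far stretch (23 of 28 fell). The stretches differ in level in the same order. Their medians of the normal means were 8.09 in the middle, 7.38 in the near and 6.54 in the far stretch. The limit given above for level therefore holds for position too. The middle stretch holds 23 of the 25 Igkv4 segments. Its 6 segments of other families had a median of -1.01, and 5 of them fell. In the heavy chain locus the medians were -1.32, -1.91 and -1.64 from the near to the far stretch, where 32 of 38, 37 of 38 and 37 of 37 segments fell.

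All 25 Igkv4 segments fell in tumors against normal glands, with a median of -3.06, and 21 of them fell by more than 2 log2 units. Their median level was 5.50 in tumors, 7.52 in hyperplastic and 8.40 in normal glands. Igkv4-59 had a lowest, median and highest value of 4.40, 6.57 and 7.90 in tumors, 7.78, 9.24 and 9.78 in hyperplastic glands, and 9.57, 10.28 and 10.70 in normal glands. No tumor reached a normal gland, and only the highest tumors met the lowest hyperplastic gland. The level was 13.0-fold lower in tumors than in normal glands (log2 difference -3.71 ± 0.507 SE, adjusted p = 2.09e-05) and the difference from hyperplastic glands was -2.67 ± 0.507 (adjusted p = 0.0011). Igkv4-54 ran alike at 4.49, 6.91 and 8.37 in tumors against 9.86, 10.53 and 11.04 in normal glands, 12.7-fold lower in tumors. Igkv4-86, the segment of the family with the largest difference, stood at 4.13, 5.81 and 7.42 in tumors against 9.22, 9.87 and 10.37 in normal glands (log2 difference -3.91 ± 0.529, adjusted p = 1.92e-05). The tumors differed among themselves in these transcripts. Tumors 2, 5 and 6 kept 7.44, 8.20 and 8.37 for Igkv4-54, while tumor 1 had 4.49, under the detection level. Igkv4-62 and Igkv4-71 were also lowest in tumor 1 (3.85 and 5.17), and their highest values were in tumor 6 for Igkv4-62 (7.59) and in tumor 5 for Igkv4-71 (8.32).

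The 5 Igkv5 segments had the lowest median difference of any family with at least 5 members, at -3.32, and all 5 fell. Igkv5-43 had values of 3.53, 4.20 and 6.26 (lowest, median, highest) in tumors, 7.22, 7.93 and 9.58 in hyperplastic glands, and 6.93, 10.72 and 11.15 in normal glands. Its tumors overlapped neither other group. The normal glands themselves fell into separate levels, as described further on. The Igkv6 segments fell in 6 of 6 cases (median -2.74), the Igkv3 segments in 5 of 5 (median -2.32), and the Igkv8 segments in 7 of 8 with a smaller median of -0.78. Igkv12 and Igkv2 had the smallest medians among kappa families of at least 5 members, -0.66 and -0.59, with 3 of 5 segments falling in each. Igkv19-93, alone in its family, averaged 6.36 ± 0.57 in tumors and 9.40 ± 0.887 in normal glands (SD, n = 6 each), 8.28-fold lower in tumors (adjusted p = 3.95e-06).

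In the heavy chain the Ighv1 family, the largest of the mouse locus, fell throughout: 61 of 61 segments, with a median of -1.93 and a range from -3.34 to -0.36. Ighv1-2 was the heavy segment with the highest mean signal. It had values of 7.74, 8.63 and 9.89 in tumors, 10.06, 11.27 and 11.92 in hyperplastic glands, and 11.38, 11.89 and 12.52 in normal glands, so that tumors overlapped neither other group while hyperplastic and normal glands overlapped. It was 9.21-fold lower in tumors than in normal glands (log2 difference -3.20 ± 0.379, adjusted p = 5.15e-06). RefSeq lists Ighv1-2 as a pseudogene, and the cluster carrying its name may also read transcripts of related segments, which was not tested. Among the other pseudogenes Ighv1-30 (-1.88) and Igkv4-56 (-1.65) fell as well, while Ighv2-1 stood at 6.89, 6.92 and 6.90 on average in tumors, hyperplastic and normal glands (tumors minus normal glands -0.01 ± 0.0907, adjusted p = 0.929). Over the 10 pseudogenes, 5 fell and the median was -0.40, beside 176 of 189 and -1.72 for the other segments.

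Ighv5 segments fell in 8 of 9 cases (median -1.89), Ighv2 in 7 of 8 (-1.61) and Ighv8 in 7 of 8 (-1.51). Ighv6 fell in 5 of 5 with a median of -0.85 and Ighv3 in 4 of 6 with a median of -0.78. Ighv9-3 was the heavy segment with the largest difference, at 4.43, 4.73 and 7.06 in tumors, 6.66, 7.65 and 9.04 in hyperplastic glands, and 7.85, 8.24 and 10.03 in normal glands (tumors minus normal glands -3.49 ± 0.471, adjusted p = 1.82e-05). Tumor 5 held the highest of its tumor values, with the next tumor at 5.04. Of the 18 segments that did not pass the test, 12 were under the detection level in all groups and 5 are pseudogenes. The 6 that were detected in some group were Ighv2-1, Ighv8-2, Igkv9-123, Igkv11-125, Igkv12-38 and Igkv12-47 (chosen after their values were seen), with differences from -0.64 for Igkv9-123 to -0.01 for Ighv2-1.

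**Figure D2:**
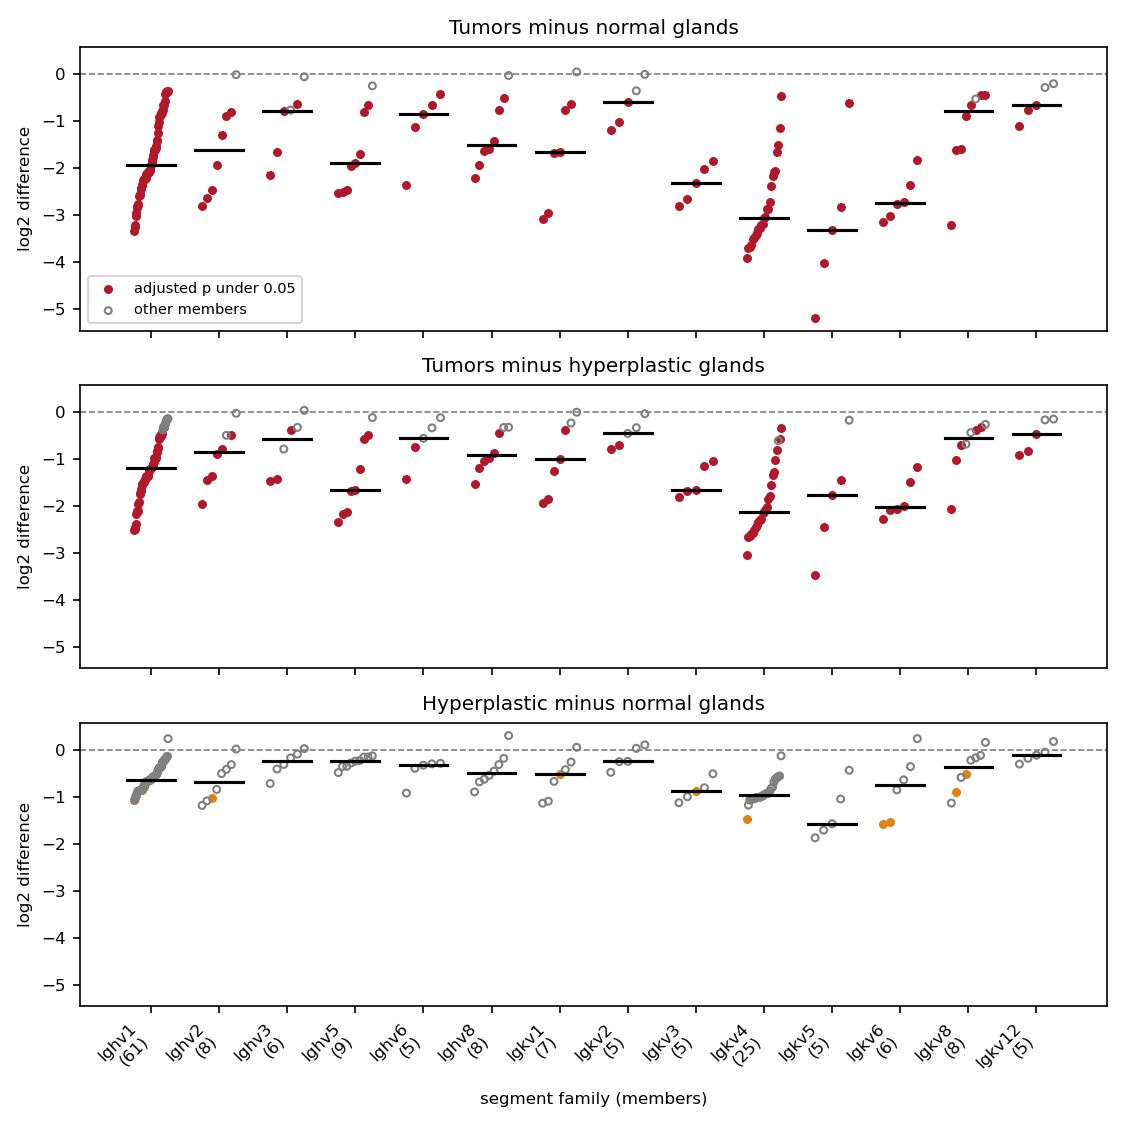
Log2 difference of each variable segment, by family with at least 5 members, for tumors minus normal glands (top), tumors minus hyperplastic glands (middle) and hyperplastic minus normal glands (bottom). Filled points passed an adjusted p of 0.05, open points did not, and black bars are family medians, which for tumors minus normal glands reach -3.06 in Igkv4 and -3.32 in Igkv5.

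The comparison of tumors with hyperplastic glands, which had met the same agents, gave 151 segments that fell and none that rose. The shares over all genes were 8.57% and 11.9%. After centring, 155 segments fell and none rose, beside 10.8% and 5.05% of all genes. Without centring, the median was -1.07 over the segments and 0.04 over all genes. Groups did not overlap in 43 segments, against 4.05% of all genes, and 34 segments fell by more than 2 log2 units, against 0.522%. Heavy segments fell in 87 of 113 cases (median -1.04) and kappa segments in 64 of 86 (median -1.09). Igkv4 again had a low median, at -2.13, with 24 of 25 segments falling, and Igkv6 had -2.03 with 6 of 6. This comparison shares its tumor arrays with the preceding one. In Igkv5-39 and Igkv4-58 the call rested on narrow margins. Igkv5-39 passed at an adjusted p of 0.0392, which became 0.0559 to 0.0944 when any one of tumors 1, 2, 3 and 4 or hyperplastic glands 1, 2, 3 and 6 was left out. Igkv4-58 passed at 0.0456, which reached between 0.0563 and 0.102 without any one of tumors 1 to 5, hyperplastic glands 1, 2, 3 and 6, or normal gland 4.

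A few segments had means in hyperplastic glands at or above those of normal glands and were low in tumors. Ighv4-1 had values of 4.04, 4.31 and 4.94 in tumors, 5.44, 7.01 and 8.18 in hyperplastic glands, and 6.17, 6.56 and 7.73 in normal glands. Its differences were -2.35 ± 0.357 for tumors minus normal glands (adjusted p = 5.95e-05), -2.51 ± 0.357 for tumors minus hyperplastic glands (adjusted p = 8.57e-05) and 0.16 ± 0.357 for hyperplastic minus normal glands (adjusted p = 0.943). Ighv1-67 was of the same kind, at -2.25, -2.48 and 0.23 in the same order of comparisons. Its hyperplastic mean leaned on hyperplastic gland 5, at 8.99 with the next at 7.47. Its SD of 0.998 in that group was the largest of any heavy segment. Ighv4-1 and Ighv1-67 were singled out after their values were seen.

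Hyperplastic glands were compared with normal glands to ask how these transcripts stood in glands that had met the agents and bore no tumor. The segments shifted downward by a small amount: 187 of 199 differences were negative, beside 12431 of 27030 genes, and the median was -0.55, beside 0.01 over all genes. Only 13 segments passed the test, all lower in hyperplastic glands, while over all genes 0.655% fell and 1.01% rose. Without adjustment, 100 of the 199 segments had a limma p under 0.05 in the downward direction, beside 1492 of the 27030 genes. After centring, 51 segments passed, all lower, while 4.92% of all genes fell and 0.263% rose. The 9 reference genes used for centring had a median difference of 0.16 before it, though none passed. In the uncentred values hyperplastic glands lay wholly below normal glands in 3 segments, Ighv1-77, Igkv1-131 and Igkv9-129, against 1.10% of all genes. None fell by more than 2 log2 units, against 0.0111% of all genes. The count of 13 was unsteady. It dropped to 2, 3, 1 and 2 without hyperplastic glands 1, 3, 4 and 5. Without normal glands 2, 3, 4 and 6 it was 3, 4, 4 and 3, and it ran from 9 to 19 when any other single array was left out. In those other fits, from 6 (without hyperplastic gland 2) to 13 (without tumor 3 or 5) of the original 13 were kept.

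The largest of the 13 was Igkv6-29, with values of 4.45, 5.21 and 5.92 in hyperplastic glands and 5.68, 6.59 and 8.09 in normal glands (log2 difference -1.58 ± 0.324, adjusted p = 0.0211). It lost the call without hyperplastic gland 4 (adjusted p = 0.0568). Its family neighbour Igkv6-20 stood at 4.73, 5.52 and 6.57 in hyperplastic glands and 6.05, 6.87 and 8.46 in normal glands (-1.54 ± 0.349, adjusted p = 0.0362). Normal gland 2 held the highest value of both and normal gland 3 the lowest among normal glands. Igkv6-20 lost the call without any one of hyperplastic glands 1, 3, 4 and 5 or normal glands 2, 4 and 5, with adjusted p-values up to 0.0904. Igkv1-131 had a smaller difference and no overlap, at 4.67, 5.12 and 5.26 in hyperplastic glands against 5.33, 5.65 and 5.74 in normal glands (-0.52 ± 0.103, adjusted p = 0.0165). Igkv4-91 (-1.47), Ighv1-85 (-1.08) and Ighv2-5 (-1.03) passed with adjusted p-values of 0.0353, 0.047 and 0.0425, and each lost the call when single arrays were left out, with adjusted p-values up to 0.113. The others were Ighv1-7, Ighv1-22, Igkv3-1, Igkv8-19 and Igkv8-28, with differences from -0.90 to -0.52, and the Ighv11 pair.

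Both Ighv11 segments measured were among the 13. In the mouse this family is used largely by B-1 cells, the innate-like B cells of the body cavities that recognise membrane lipids. Ighv11-1 lay between 4.33 and 4.78 in the 6 hyperplastic glands and between 4.07 and 4.52 in the 6 tumors, all under the detection level. Normal gland 2 had 7.28, normal glands 6, 4 and 3 had 6.37, 6.09 and 6.05, and normal glands 1 and 5 had 4.82 and 4.61, under the detection level as well. Ighv11-2 followed with 6.78 in normal gland 2, and with 4.28 to 4.69 in hyperplastic glands. The differences of hyperplastic minus normal glands were -1.35 ± 0.32 for Ighv11-1 (adjusted p = 0.0425) and -1.05 ± 0.245 for Ighv11-2 (adjusted p = 0.0405), both carried by 4 of the 6 normal glands. The call of Ighv11-1 was lost without any one of hyperplastic glands 1 to 5 or normal glands 2, 3, 4 and 6, with adjusted p-values from 0.0632 to 0.098. Tumors and hyperplastic glands did not differ by the test in either (-0.26 ± 0.32 and -0.29 ± 0.245 for tumors minus hyperplastic glands, adjusted p = 0.632 and 0.469). The means of both segments lay under the detection level in both groups, so this comparison cannot show a further decrease.

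The best known light chain partners of these cells in the mouse are Igkv14-126, joined with Ighv11-2, and Igkv4-91, joined with Ighv12-3, so these were looked up after the Ighv11 values were seen. Igkv14-126 has no cluster of its own, since its cluster also carries the symbol of the kappa locus, and it is therefore not among the 199. That cluster lay between 4.64 and 5.58 in tumors, between 5.14 and 6.06 in hyperplastic glands, and between 6.29 and 9.82 in normal glands. Every hyperplastic gland was thus below every normal gland, and normal glands 3 and 2 were highest, at 9.82 and 8.64. The difference of hyperplastic minus normal glands was -2.04 ± 0.424 (adjusted p = 0.0225) and that of tumors minus hyperplastic glands -0.80 ± 0.424 (adjusted p = 0.213). Igkv4-91 had values of 3.86, 4.31 and 5.28 in tumors, 4.39, 5.01 and 6.09 in hyperplastic glands, and 6.02, 6.24 and 7.82 in normal glands, with hyperplastic gland 3 alone reaching the normal range. Ighv12-3 had means of 6.77, 6.83 and 7.01 in tumors, hyperplastic and normal glands and a difference of -0.17 ± 0.0851 for hyperplastic minus normal glands (adjusted p = 0.389).

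Segments varied more between arrays of a group than most genes did. The median SD over the segments was 0.316 in tumors, 0.514 in hyperplastic and 0.408 in normal glands, against 0.143, 0.105 and 0.115 over all genes in the same groups. Without hyperplastic gland 4 the value for hyperplastic glands was 0.341, below that of normal glands, so the rank of the hyperplastic glands rested on that array. With both sets restricted to genes detected in the group, the medians were 0.372, 0.575 and 0.442 for segments and 0.184, 0.121 and 0.131 for all genes. T cell receptor variable segments, of which 114 were measured, had medians of 0.122, 0.234 and 0.165.

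Some single segments were high in a single tissue. After the shift of the whole chain on an array was removed, 4 segments stood more than 2 log2 units above their group median on an array, a threshold chosen after the values were seen. The most marked was Igkv6-14 in hyperplastic gland 5. Its value there was 11.23, while the other 5 hyperplastic glands lay between 6.40 and 7.70, the tumors between 5.18 and 6.16, and the normal glands between 7.17 and 8.05. On that array Ighv1-67 (8.99, next 7.47), Ighv3-1 (8.92, next 7.60) and Ighv8-2 (7.01, next 5.41) were also the highest of their group, by 1.75, 1.90 and 1.76 log2 units above the chain's shift. Whether these transcripts came from the same cells was not measured. In the same gland the B cell list had a mean of 7.57, within the range of 7.37 to 8.41 over the group, and Jchain had 7.49, second to hyperplastic gland 2 at 7.59.

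Tumor 6 had the other marked cases. Igkv5-39 reached 8.01 there against 4.14 to 5.90 in the other tumors, so that its tumors overlapped the normal glands (7.26, 7.99 and 9.74), which for most segments they did not. Ighv3-6 was 7.38 in tumor 6, with 5.77 as the next tumor, and likewise overlapped the normal glands. On this array 16 segments stood more than 1 log2 unit above the group median after the chain's shift was removed, and 10 of these were Igkv4 segments. Tumor 5 had 10 such segments and tumors 1 to 4 between 0 and 1. Among those counted in tumor 6, Ighv1-43, Igkv4-55, Igkv4-57, Igkv4-59, Igkv4-71 and Igkv4-86 were higher in another tumor. Igkv4-54, Igkv4-57-1, Igkv4-61, Igkv4-62 and Igkv4-80 were highest in tumor 6. The count therefore does not show segments high in tumor 6 alone. The last case was Igkv4-58 in normal gland 6, at 9.55 with 8.31 as the next normal gland.

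The normal glands were not uniform either. Igkv5-43 had 6.93 in normal gland 3 and 7.84 in normal gland 5, against 10.49 to 11.15 in the other 4. Igkv5-45 had 6.24 and 6.56 in these glands against 8.60 to 9.33. Of the 199 segments, 7 had both glands below the other 4 by more than 0.25 log2 units, a set found by looking at the values: Igkv5-43, Igkv5-45, Igkv5-48, Igkv10-95, Ighv2-2, Ighv2-4 and Ighv2-5. The set thus holds 3 of the 5 Igkv5 and 3 of the 8 Ighv2 segments. Ighv2-2 had 9.23 and 9.16 in normal glands 3 and 5 against 10.20 to 11.29 in the other 4. The hyperplastic glands had 7.22 to 9.58 for Igkv5-43 and 8.72 to 10.11 for Ighv2-2, below the 4 higher normal glands in each case. Igkv5-43 and Igkv5-45 fell in tumors against normal glands whichever array was left out, while hyperplastic minus normal glands (-1.71 ± 0.733, adjusted p = 0.301, for Igkv5-43) did not pass.

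**Figure D3:**
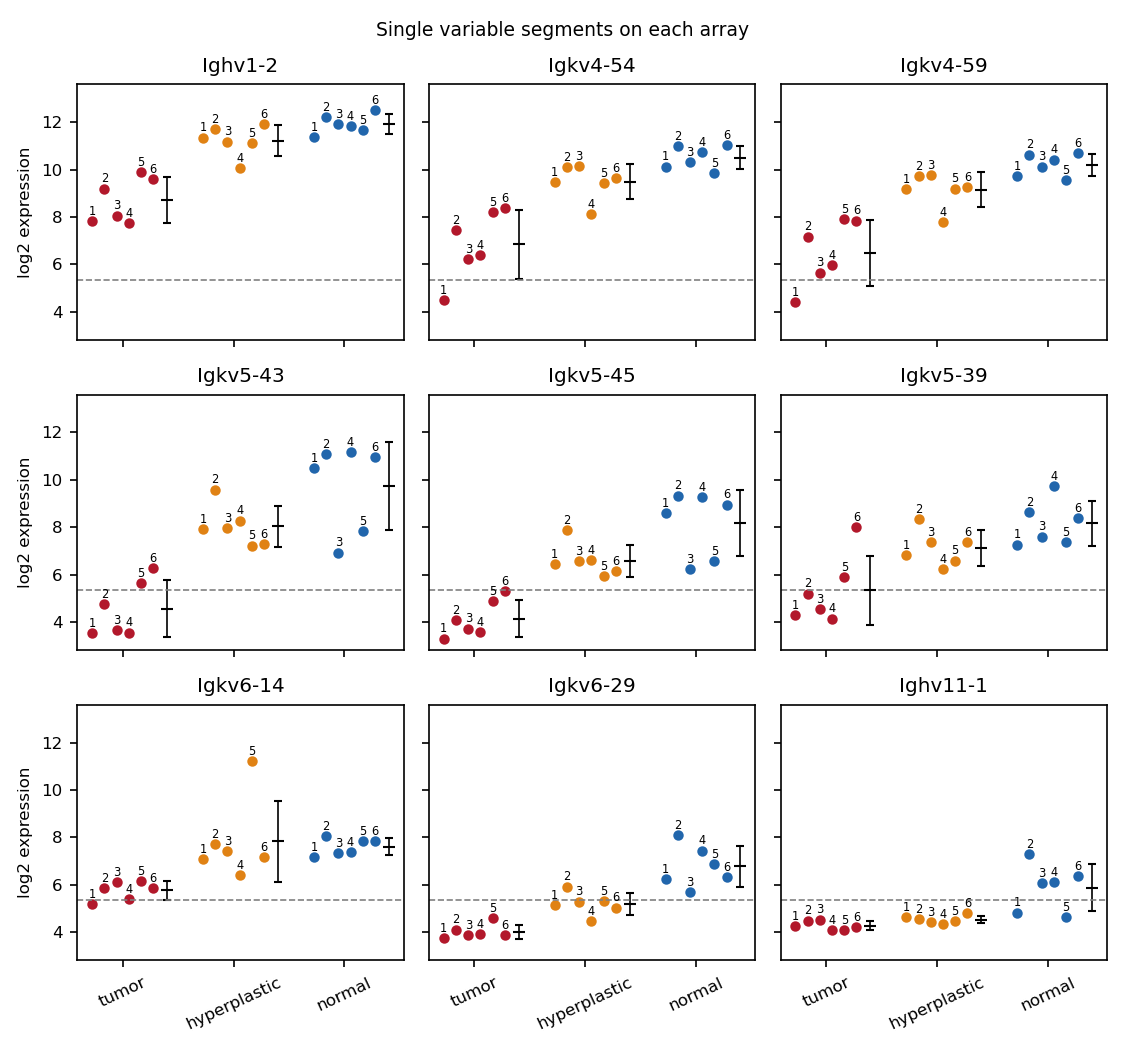
Log2 expression of 9 variable segments on each array (points, numbered by replicate), with the group mean and SD beside them (n = 6 each) and the detection level of 5.36 as a dashed line, for tumors, hyperplastic glands and normal glands. Igkv6-14 stands at 11.23 in hyperplastic gland 5, Igkv5-39 at 8.01 in tumor 6, and Igkv5-43 and Igkv5-45 split normal glands 3 and 5 from the other 4.

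The constant regions, to which a variable exon is spliced, moved with the segments. The 4 with a cluster of their own (Ighm, Ighg1, Ighg2b and Ighe) all fell in tumors against normal glands, with a median of -2.20, 3 fell against hyperplastic glands (median -1.32), and none differed by the test between hyperplastic and normal glands (median -0.50). Ighm, the constant region of IgM, had values of 6.63, 7.00 and 8.76 in tumors, 9.48, 10.18 and 10.98 in hyperplastic glands, and 10.48, 10.95 and 11.33 in normal glands, with tumor 5 the highest tumor. It was 13.3-fold lower in tumors than in normal glands (adjusted p = 1.94e-07). Ighe, the constant region of IgE, had 4.90, 5.07 and 5.41 in tumors, 5.55, 5.94 and 8.95 in hyperplastic glands, and 6.53, 8.24 and 9.67 in normal glands. Hyperplastic gland 2 and normal gland 2 held its highest values.

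Jchain, which links secreted IgM and IgA into polymers and is made by plasma cells, had 4.59, 5.49 and 6.21 in tumors, 5.67, 6.98 and 7.59 in hyperplastic glands, and 7.62, 7.996 and 8.35 in normal glands. Every hyperplastic gland lay below every normal gland, yet the difference of -1.14 ± 0.322 missed the threshold (adjusted p = 0.0842), while that of tumors minus normal glands passed (-2.47 ± 0.322, adjusted p = 1.33e-05). Jchain did not stand for its list. Of 14 plasma cell genes measured, 5 fell in tumors against normal glands (Jchain, Irf4, Tnfrsf17, Tnfrsf13b and Slamf7), beside 12.7% of all genes. The 3 that rose, beside 19.5% of all genes, were Sdc1, which epithelium also carries on its surface, and the secretory pathway genes Fkbp11 and Creld2. The median over the 14 was -0.003. Between hyperplastic and normal glands none differed by the test, and the median of 0.15 had the opposite sign to Jchain.

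B cell genes gave a different reading in the hyperplastic glands. Of 21 measured, among them Cd79a of the antigen receptor and the complement receptor Cr2, 20 fell in tumors against normal glands (median -1.41) and 21 fell against hyperplastic glands (median -1.35). Between hyperplastic and normal glands none passed, and the median was -0.02, beside -0.55 for the segments. The mean of the B cell list per array ran from 6.12 to 6.74 in tumors, from 7.37 to 8.41 in hyperplastic glands and from 7.52 to 8.13 in normal glands. Set against it on the same array, the mean of the segments was lower by 1.03 to 1.67 log2 units in hyperplastic glands, by 0.612 to 1.12 in normal glands, and by 0.637 to 1.27 in tumors, so the ranges overlapped. The difference between the segments and the B cell genes was not tested. Genes of recombination and B cell precursors (Rag2, Vpreb1, Vpreb2, Igll1 and Cd93) passed in no comparison, with Rag2 and Igll1 under the detection level in every group. Of 6 germinal center genes, Gcsam fell and Mybl1 and S1pr2 rose in tumors against normal glands, and Rgs13 passed with a difference of -0.26 while under the detection level in every group.

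**Figure D4:**
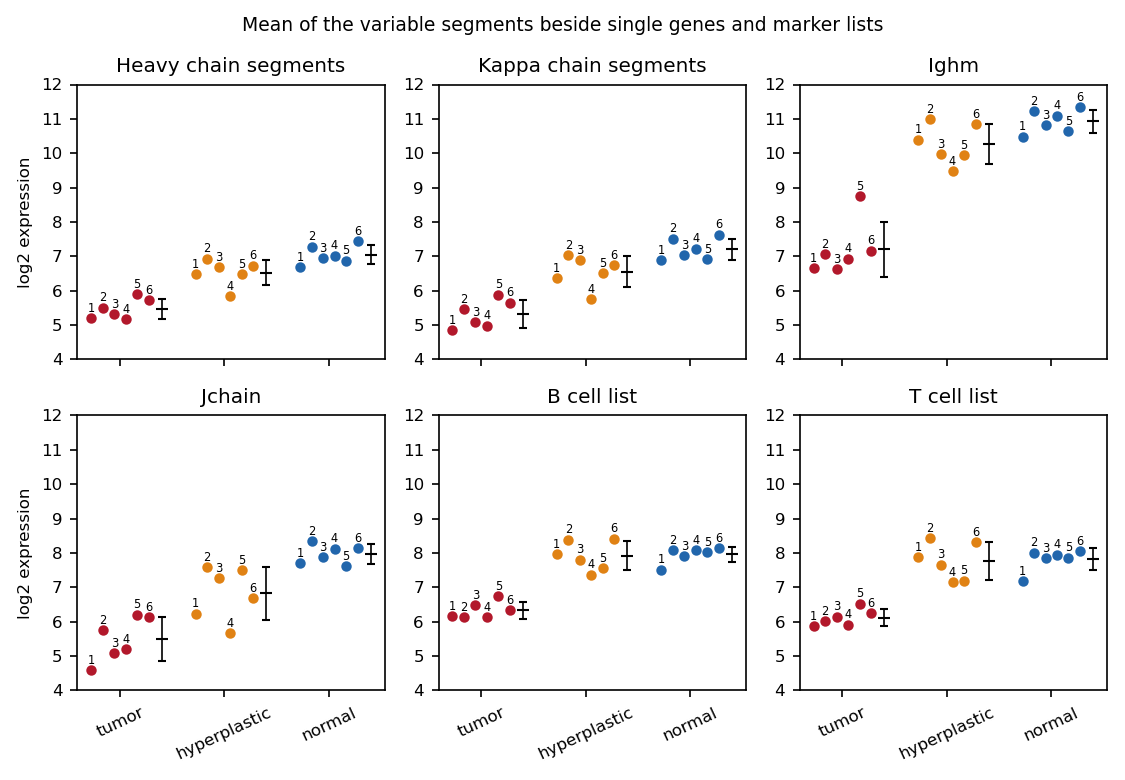
Mean log2 expression per array (points, numbered by replicate) of the heavy and kappa variable segments, of Ighm and Jchain, and of the B cell (21 genes) and T cell (13 genes) lists, with group means and SDs (n = 6 each), for tumors, hyperplastic glands and normal glands. The segments and Jchain are lowest on average in tumors, higher in hyperplastic and highest in normal glands, while the B cell and T cell lists are lowest in tumors and overlap between hyperplastic and normal glands. Jchain is 1 of 14 plasma cell genes measured, whose median difference of hyperplastic minus normal glands was 0.15.

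Other cell types of the gland moved with the segments in the tumors. The 13 T cell genes measured all fell against normal glands (median -1.80), as did all 11 fat cell genes (median -2.92) and all 8 genes of blood endothelium (median -0.96). Between hyperplastic and normal glands none of the T cell or fat cell genes differed by the test. Of the 8 endothelial genes, 2 (Tek and Emcn) were lower in hyperplastic glands, beside 0.655% of all genes. The T cell list ran from 5.88 to 6.52 in tumors, from 7.14 to 8.42 in hyperplastic glands and from 7.19 to 8.05 in normal glands. The fat cell list ran from 7.21 to 8.67 in tumors, from 10.23 to 10.999 in hyperplastic glands and from 10.35 to 10.63 in normal glands. Tumors 5 and 6, which had the highest segment means, also had the highest fat cell values (8.67 and 8.48) and lymph node stroma values (8.28 and 8.12, against 6.44 to 7.14 in tumors 1 to 4). Hyperplastic gland 4, the lowest for segments, was lowest of its group for B cells (7.37), T cells (7.14) and lymph node stroma (8.60). Mammary epithelium genes rose in 5 of 14 cases in tumors against normal glands and none fell, beside 19.5% and 12.7% of all genes. Tumor 3 had the lowest epithelial mean, at 7.78, against 9.45 to 10.22 in the other tumors. The part of the tissue make-up in the fall of the segments was not tested.

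Among genes for homing and survival of B cells and plasma cells, the follicle chemokine Cxcl13 had a mean of 7.38 ± 1.64 in tumors, 11.14 ± 0.441 in hyperplastic and 11.16 ± 0.306 in normal glands (SD over 6 arrays). Of the 9 measured, 4 fell in tumors against normal glands (Cxcl13, Ccr7, Tnfsf13b and Itgb7) and Cxcr4 rose. In hyperplastic glands Cxcr4 (0.83 ± 0.124, adjusted p = 0.00241) and the mucosal addressin Madcam1 (0.47 ± 0.09, adjusted p = 0.0139) were above normal glands. Of 9 antibody transport and Fc receptor genes, the phagocyte genes Fcgr1, Fcgr4 and Fcer1g rose in tumors against normal glands, where 19.5% of all genes rose and 12.7% fell. The mast cell and basophil gene Fcer1a passed with a difference of -0.22, though it was under the detection level in every group. Against hyperplastic glands none of the 9 rose and Fcamr fell. Pigr, which carries polymeric antibody across epithelium into milk, had a mean of 6.93 ± 1.40 in tumors, 6.67 ± 0.961 in hyperplastic and 6.02 ± 0.335 in normal glands, and passed in no comparison (tumors minus normal glands 0.91 ± 0.535, adjusted p = 0.219).

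The T cell receptor variable segments, assembled by the same recombinase in T cells, fell in 73 of 114 cases in tumors against normal glands, with a median of -0.36. Their levels were also lower (median of the normal means 5.84, beside 7.39 for the immunoglobulin segments). Against hyperplastic glands 60 fell (median -0.34). Between hyperplastic and normal glands none passed and the median was -0.02. The difference between the 2 kinds of segment was not tested.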

How the data were processed

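The authors deposited log2 expression values made by RMA, which subtracts background, gives all arrays the same distribution and summarises the probes of a transcript cluster. The submitters' processing notes name Affymetrix Expression Console, RMA and Partek without versions. Quantile normalization removes differences in total RNA between groups. Array medians lay between 5.31 and 5.51, and 6 arrays per group limit the precision.

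Clusters with 1 symbol were kept, and for 198 genes with several clusters the cluster of highest mean, leaving 27030 genes, of which 17049 had a mean above the detection level. Each segment had 1 cluster. RefSeq positions (GRCm38.p6) gave only the order within a locus, since the build behind the files is not given in the sources used here. Group means were fitted to all 18 arrays with limma 3.58.1 (R 4.3.3, eBayes, two-sided, Benjamini-Hochberg over 27030 genes), and the code was tested on simulated data. Most genes on autosomes past 16 were not analysed here. Marker lists came from textbook knowledge. Members and lists were chosen with earlier results of these data known.

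Segments were named by rule: per comparison the 5 called segments with the largest fall and the 5 with the largest rise among those detected, the 3 of highest mean per chain and the 3 of largest SD per group, which gave 21. Others named were chosen after their values were seen. A second deposited table held identical values at its 58776 entries. Alternatives covered a filter on undetected genes, centring on 9 reference genes, eBayes settings, array weights, cluster choice, 2-group fits, the replicate block and each array left out.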

Additional observations from a re-analysis of the deposited data

Results flagged for a closer look

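Among the 69 groups of 6 arrays checked (21 segments and both chain means in 3 groups), 6 held an array whose gap to its nearest neighbour was over 0.625 of the group's range. About 1 in 20 groups of independent values, not picked from the data, would pass that threshold by chance. The 21 segments were picked for large changes, high means or large SDs on these same arrays, and they share arrays. The 6 are therefore not compared with that rate. Hyperplastic gland 5 was highest for Igkv6-14 at 11.2, with the next at 7.70. Hyperplastic gland 4 was lowest for Igkv4-59 at 7.78 (next 9.18), for Igkv4-54 at 8.12 (next 9.44) and for Igkv4-71 at 8.05 (next 9.35); these 3 segments belong to the same family and count as a single case. Hyperplastic gland 2 was highest for Igkv5-45 at 7.86 (next 6.60), and tumor 5 for Ighv9-3 at 7.06 (next 5.04).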

How the results depend on the processing

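No named segment changed direction with a call on either side under any setting tried. In tumors against normal glands the count of 181 ran from 156 to 197, apart from 82 at the methods' threshold (log2 change over 2, unadjusted p under 0.05). The 156 came from the fit with only detected genes, which held 160 segments. All 588 values of the named segments kept their side in this comparison. In tumors against hyperplastic glands the count of 151 ran from 127 to 162, apart from 34 at that threshold, and 24 values lost the call, those of Igkv5-39, Igkv4-58, Igkv6-29 and Igkv6-14. The count of 13 in hyperplastic against normal glands became 20 of the 160 segments in the fit with only detected genes. It became 51 after centring, 6 with eBayes trend and robust, 34 with array weights and 23 with only those 2 groups fitted. The share of all fitted genes called, in either direction, moved as well. That share was 1.67% in the main fit, 2.82% with only detected genes, 5.18% after centring and 1.14% with eBayes trend and robust. With array weights it was 8.77%, and with only those 2 groups fitted 5.64%. Without tumors 3 and 6 and hyperplastic gland 3 (chosen after seeing the data, 5 of the 13 kept) the count of segments was 6, beside 1.44% of all genes. At the methods' threshold the count was 0, beside 0.0259% of all genes. All 13 were kept with only detected genes, centring, array weights and the 2-group fit, and the cause of these shifts was not tested. Among named segments 52 values lost that call and 1, Ighv2-2 after centring, gained it. The replicate block gave 25 in place of 13 (183 and 158 in the other comparisons), with all 13 kept. The numbers share no stated link: same-numbered arrays had correlations from -0.187 to 0.405, with 7 of 18 over 0.1, and 5 of 18 matched their own number best. Leaving out single arrays gave 176 to 182 (tumors against normal glands), 133 to 162 (tumors against hyperplastic glands) and 1 to 19 (hyperplastic against normal glands), and median SDs of 0.265 to 0.333 in tumors, 0.341 to 0.549 in hyperplastic glands (lowest without number 4) and 0.344 to 0.433 in normal glands. Signals near background limit the 39 undetected segments.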

Other observations

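Clusters that carry several symbols were left out of the counts, and 24 of them include a variable segment. The cluster of the lambda locus lay between 5.26 and 6.96 in tumors, between 7.14 and 9.21 in hyperplastic glands and between 8.20 and 9.09 in normal glands (tumors minus normal glands -2.89 ± 0.311, adjusted p from limma 1.95e-06). The cluster shared by Igkv10-94 and Igkv10-96 stood at 10.76 in hyperplastic gland 2, with 8.64 as the next hyperplastic gland, and on the same array Igkv10-95 was highest of its group at 9.88. In hyperplastic gland 5, where Igkv6-14 reached 11.23, the cluster shared by Igkv6-14 and Igkv6-15 had 8.85, next to 8.63 in hyperplastic gland 3.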
